A study of Mus musculus with 6 samples.

Results

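The expressed long intergenic noncoding RNAs (lincRNAs) of TKO mouse embryonic stem cells were selected on their measured level: genes that GENCODE M21 types as lincRNA with a mean over 6 RNA-seq libraries of at least 1 TPM (a read measure scaled for transcript length and to the same total in each library), without the 4 imprinted lincRNAs H19, Meg3, Rian and Mirg. The rule took 367 of 5383 lincRNA genes, of which 3095 had any estimated count. Because mean TPM chose these 367 genes, their levels are described and not tested. LincRNAs are transcribed, spliced and polyadenylated much as mRNAs are, but carry no annotated protein. Some scaffold nuclear bodies, some release small nucleolar RNAs (snoRNAs) or microRNAs (miRNAs) from their introns or exons, and some act on genes beside them, while most have no known role. In mouse embryonic stem cells (mESCs), a set named Platr (pluripotency-associated transcripts) is known for falling when the cells differentiate.

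TKO cells were derived from the male J1 line of strain 129S4/SvJae and carry knockouts of Dnmt1, Dnmt3a and Dnmt3b, the enzymes that methylate DNA. Both conditions carry all 3 knockouts, so the comparison is of culture media within a single genotype. The 3 TKO-serum replicates were grown with 15% FCS and LIF at 500 U/ml. The 3 TKO-2i replicates were grown for 14 days with PD0325901 (1 µM), which inhibits MEK, CHIR99021 (3 µM), which inhibits GSK3, and LIF at 1000 U/ml. Cells were kept without feeders on gelatin, and 500 ng of RNA went into each poly(A)-selected, strand-specific library. The parts of the LIF dose, the serum and each inhibitor cannot be told apart. The total of estimated counts was 46228700, 44180642 and 43896549 in TKO-2i replicates 1, 2 and 3 and 38274042, 51932739 and 44827609 in TKO-serum replicates 1, 2 and 3. Between 255557 and 339928 of these fell on the 367 lincRNAs.

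Transcripts of the knocked-out genes were still counted in every library. Dnmt1 stood at 149.6, 153.5 and 155.2 CPM (counts scaled to library size) in TKO-2i and 129.3, 129.6 and 128.6 CPM in TKO-serum. Its log2 fold change was 0.24 (SE 0.05, adjusted p = 0.0022), a call that was lost with limma on TPM (adjusted p = 0.12, the highest of alternatives that went down to 8.9e-05). Dnmt3a stood at 7.14, 7.46 and 7.36 CPM in TKO-2i and 30.2, 29.4 and 30.7 CPM in TKO-serum, and Dnmt3b at 19, 20.3 and 20.6 CPM against 43.1, 42.3 and 44 CPM. The log2 fold changes were -2.04 for Dnmt3a (SE 0.06, adjusted p = 6.3e-08) and -1.11 for Dnmt3b (SE 0.05, adjusted p = 7.1e-07). Counts of RNA do not show whether a transcript still encodes an enzyme.

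Markers of embryonic stem cells were abundant in all libraries. The summed level of the 8 genes Pou5f1, Sox2, Nanog, Zfp42, Esrrb, Dppa5a, Tdgf1 and Utf1 was 5500, 5028 and 4986 TPM in TKO-2i and 6345, 6013 and 6118 TPM in TKO-serum, with Dppa5a the most abundant. The 7 feeder fibroblast markers summed to 4.12, 4.81 and 4.55 TPM in TKO-2i and 5.83, 6.48 and 5.94 TPM in TKO-serum. Most of this was Thy1, and of 3 markers tested 2 were lower and none higher. The collagen-binding gene Dcn had 0, 1 and 0 estimated counts in TKO-2i and 11, 14 and 8 in TKO-serum. Markers of rarer states moved with the medium. All 8 markers of 2-cell-like cells, a rare state that resembles the early cleavage embryo, were lower in TKO-2i, with a summed level of 2.02, 1.89 and 1.72 TPM against 52.1, 63.4 and 59.5 TPM in TKO-serum and Zscan4f the most abundant. Of the 7 primitive endoderm markers 6 were lower, with a summed level of 4.76, 5.8 and 4.69 TPM against 14.6, 17.7 and 19.3 TPM, with Dab2 the most abundant. Trophoblast markers were higher for 3 and lower for 2 of 6 genes (80.8, 75.7 and 77.1 TPM against 39.8, 40 and 38.3 TPM, most of it Krt8), and neural progenitor markers were higher for 1 and lower for 4 of 5 genes (90.3, 91.1 and 87.9 TPM against 134.6, 138 and 134.7 TPM, most of it Tubb3). Over all genes tested, 31.9% were higher and 30.6% lower in TKO-2i, and a share near these is no result about a marker list. The part of these cell states in the lincRNA differences was not tested, and in bulk RNA fewer cells of a state and less RNA per cell cannot be told apart.

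A single library, TKO-2i replicate 2, stood apart from its replicates. Among the 288 lincRNAs with a mean of at least 1 TPM in each condition, it was the highest of the 3 TKO-2i libraries for 203 (70.5%), close to the 71.3% for protein-coding genes of the same level. Retained-intron transcripts made up 4.93% of its TPM against 4.2% and 4.43% in replicates 1 and 3, and mitochondrial transcripts 5.01% against 3.61% and 3.87%. In TKO-serum the retained-intron shares were 4.25%, 4.5% and 4.63% and the mitochondrial shares 3.62%, 3.91% and 3.89%. The coefficient of variation between replicates had a median of 18.8% in TKO-2i and 11.1% in TKO-serum for these lincRNAs, and of 8.76% and 5.96% for protein-coding genes. In part this is shared by the conditions. Of the 288 lincRNAs, TKO-2i replicate 1 was the lowest of its condition for 162 and TKO-serum replicate 1 for 161, and TKO-serum replicate 2 was the highest for 132 (45.8%, against 56.6% of protein-coding genes). The totals, some group counts and the named genes whose call it changes are given below with and without TKO-2i replicate 2. Other counts are those of all 6 libraries.

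The 367 lincRNAs were mostly of low level. Their median of mean TPM was 3.51, against 16.8 for the 12278 protein-coding genes with at least 1 TPM, and 91 lincRNAs reached 10 TPM and 7 reached 100 TPM. Together they held 6063, 6167 and 6387 TPM in TKO-2i and 6630, 6618 and 6936 TPM in TKO-serum, or 0.606% to 0.694% of all TPM. Gm42418 and Gm26917, which overlap ribosomal RNA sequence and serve as a sign of ribosomal RNA carry-over, made up a large share of this. Without these genes the sums were 3148, 3914 and 3385 TPM in TKO-2i and 4118, 4434 and 4411 TPM in TKO-serum, which do not overlap. Neither gene was called in the main fit. Gm42418 held 2312, 1665 and 2315 TPM in TKO-2i and 1828, 1586 and 1791 TPM in TKO-serum (log2 fold change 0.41, SE 0.17, adjusted p = 0.059), and TKO-2i replicate 2 lay within the range of TKO-serum. Without that library the log2 fold change was 0.60 (adjusted p = 3e-05, the lowest of alternatives that went up to 0.21), and for Gm26917 it was 0.31 (adjusted p = 0.0011, the lowest of alternatives that went up to 0.98) against 0.19 (adjusted p = 0.18) with all libraries. By TPM Gm26917 was not higher, at 603.1, 587.7 and 686.7 TPM in TKO-2i and 684, 598 and 734.1 TPM in TKO-serum, and limma on TPM gave -0.10. With all 6 libraries Gm42418 was also called by DESeq2, without the filter on low counts and with a replicate block, and Gm26917 with a replicate block.

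At the threshold, the lincRNAs just inside were Gm14321, Gm49575 and 1700063D05Rik at 1, 1.01 and 1.01 TPM, and those just outside were Gm38997, Gm7160 and 6030443J06Rik at 0.996, 0.994 and 0.993 TPM. The mean over both conditions also admitted 57 lincRNAs that were under 1 TPM in TKO-2i and 22 that were under 1 TPM in TKO-serum. These had to differ between conditions to be admitted. Counts over all 367 lincRNAs include them, and counts over the 288 lincRNAs with at least 1 TPM in each condition or their medians are given beside most of these below.

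Of the 367 lincRNAs, 351 passed the filter on low counts and 16 did not and have no test in the main fit. Among these, Gm45090 had 504 estimated counts in TKO-serum replicate 1 and 0 in the other 5 libraries. The lincRNA-typed Rmrp gene, whose RNA is part of the mitochondrial RNA-processing ribonuclease, had 6 estimated counts in TKO-2i replicate 3, 20 in TKO-serum replicate 3 and 0 elsewhere. Gm42470 had 9, 10 and 9 estimated counts in TKO-2i and 1, 4 and 4 in TKO-serum.

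In TKO-2i, 71 of the 351 tested lincRNAs were higher and 121 were lower than in TKO-serum, called at an adjusted p under 0.05 (the quasi-likelihood test of edgeR, Benjamini-Hochberg adjustment over all 18177 genes tested). The 192 called lincRNAs are 54.7% of those tested, against 62.5% of all genes. The share called higher was 20.2%, against 31.9% of all genes, and the share called lower was 34.5%, against 30.6%. A fold change of at least 2 was reached by 33 higher lincRNAs (9.4%, against 7.72% of all genes) and by 79 lower ones (22.5%, against 15.6%). The median log2 fold change was -0.18 with quartiles of -0.92 and 0.39, against 0.01 with quartiles of -0.51 and 0.40 over all genes. Without TKO-2i replicate 2, 71 were higher and 148 lower.

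LincRNAs admitted through 1 condition alone were mostly called. Of the 57 lincRNAs under 1 TPM in TKO-2i, 49 were tested and 43 were lower, and of the 22 under 1 TPM in TKO-serum, 18 were tested and 15 were higher. Among the 288 lincRNAs with at least 1 TPM in each condition, 284 were tested, 56 were higher (19.7%), 78 were lower (27.5%) and the median was -0.11. In this set 8.1% were at least 2-fold higher and 14.4% at least 2-fold lower, near the 7.72% and 15.6% of all genes. All genes tested include genes under 1 TPM. The lincRNAs admitted through TKO-serum alone hold 38 of the 79 falls of at least 2-fold over all 351. Without TKO-2i replicate 2, 57 of the 284 were higher and 103 lower, with a median of -0.21. Of the lincRNAs called in that set, 41.8% were higher, against 37% of the lincRNAs called in all. For the 12278 protein-coding genes with at least 1 TPM, of which 12263 were tested, 40.2% were higher, 26.9% were lower and the median was 0.09. Of these 12263, 854 were at least 2-fold higher and 1074 at least 2-fold lower, a smaller share of such falls than the 14.4% of the lincRNAs. The lincRNA shares are set beside these as a description and were not tested against them. The same holds for every list and group below: 31.9% of all genes were higher and 30.6% lower, and a share near these is no result about the list.

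**Figure D1:**
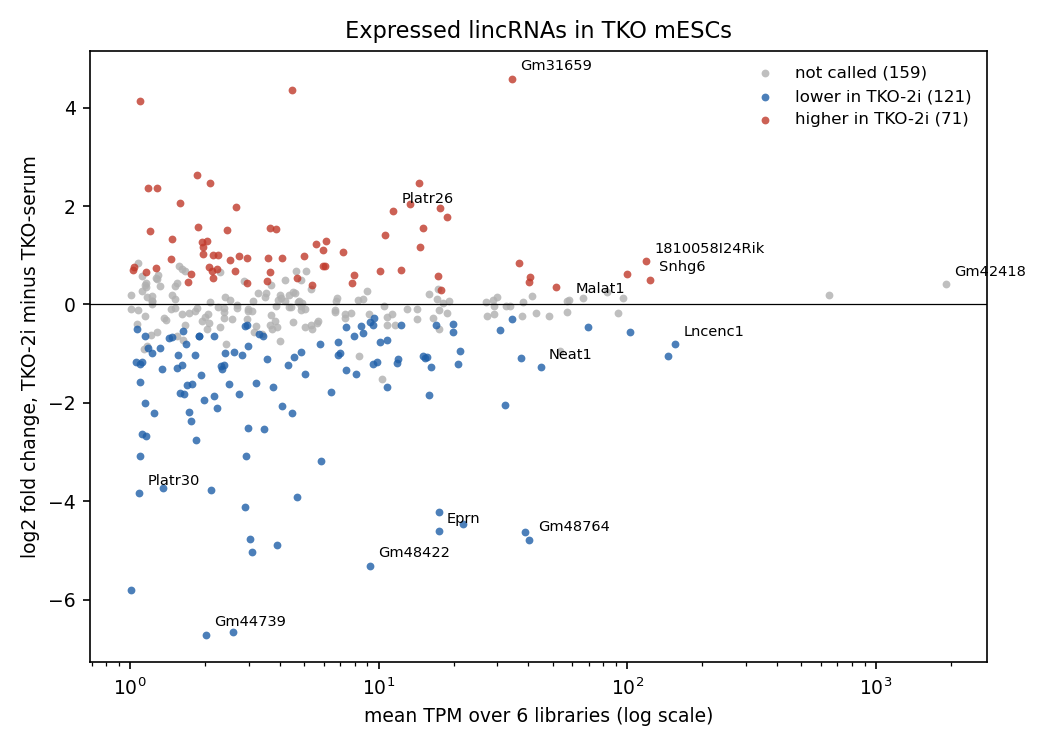
Log2 fold change between TKO-2i and TKO-serum (vertical axis) against mean TPM over the 6 libraries (horizontal axis, log scale) for the 351 tested lincRNAs, each point a gene, coloured by call. The 121 lower lincRNAs reach log2 fold changes under -6 and the 71 higher ones end at 4.59, and both directions are found from 1 TPM to over 100 TPM.

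Of the 5 listed host genes of snoRNAs among the lincRNAs, 3 rose in TKO-2i and 2 were not called, with a median log2 fold change of 0.50. Over all 18 listed host genes that were tested, inside the set or not, 6 were higher and 4 lower with a median of 0.10, near the shares of all genes, so the rises are those of single genes. Host genes are spliced to release snoRNAs, which guide the chemical modification of ribosomal RNA, from their introns. Snhg6, the host of Snord87, stood at 129.8, 159.3 and 136.1 TPM in TKO-2i and 97.9, 111.9 and 106.5 TPM in TKO-serum (log2 fold change 0.50, SE 0.07, adjusted p = 0.00036). Snhg20 stood at 44.1, 50 and 45.6 TPM against 34.3, 32.2 and 37.7 TPM (log2 fold change 0.55, SE 0.07, adjusted p = 0.0002). For both genes every TKO-2i library lay above every TKO-serum library. Snhg12, which holds 5 annotated snoRNA genes, among them Snora44, Snora61 and Snord99, stood at 93.6, 118.4 and 112.6 TPM against 89.5, 89.2 and 96.3 TPM. These TPM values overlap between conditions although the CPM values do not (log2 fold change 0.62, SE 0.09, adjusted p = 0.00037), and with limma on TPM the call was lost (adjusted p = 0.061, the highest of alternatives that went down to 7e-09). Snhg10, the host of Scarna13, had a log2 fold change of 0.50 (SE 0.27, adjusted p = 0.14), and Epb41l4aos one of 0.13 (SE 0.09, adjusted p = 0.22).

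By the annotation, 7 lincRNAs hold a snoRNA gene on their strand, of which 4 were higher and 1 was lower. The additional ones are 2900076A07Rik, whose small RNA gene is annotated as Mir1839 and which rose from 3.43, 4.36 and 4.38 TPM to 6.9, 9.34 and 7.56 TPM (log2 fold change 1.11, SE 0.16, adjusted p = 0.00036), and 2700038G22Rik, the host of Snord93, which fell by 0.40 on the log2 scale (SE 0.09, adjusted p = 0.005). Among 14 listed host genes outside the set, mostly typed as processed transcripts, 13 were tested, 3 were higher (Zfas1 0.70, Snhg5 0.29 and Gas5 0.28 in log2 fold change) and 4 were lower (Dancr -0.33, Snhg8 -0.48, Snhg14 -0.88 and Snhg18 -2.16), with a median of -0.01. Of 10 factors of nonsense-mediated decay, the pathway that degrades many spliced snoRNA host RNAs, 5 were higher and 5 not called (31.9% of all genes were higher), with the largest log2 fold changes for Smg9 (1.07) and the endonuclease Smg6 (0.66). Of 15 genes of the nuclear RNA exosome, which trims and degrades nuclear RNA, 6 were higher (Exosc8 0.65) and 3 were lower, among them its helicase Mtrex (-0.80), so 9 of 15 were called where 62.5% of all genes were.

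Many snoRNA host genes start their RNA within a run of pyrimidines, the terminal oligopyrimidine tract of genes for the translation machinery. The start regions of Snhg12, Snhg20 and Snhg10 are shown because the annotated start of the dominant transcript and the RefSeq start (build GRCm38.p6) coincide. The run of C and T from the start base is 6 bases in Snhg12, in capitals, and 0 bases in Snhg20 and Snhg10. The regions are chr4:132308658-132308717 on the plus strand, chr11:117076763-117076822 on the plus strand and chr12:105032240-105032299 on the minus strand.
Snhg12: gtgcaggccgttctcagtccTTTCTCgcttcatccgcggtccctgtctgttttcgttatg
Snhg20: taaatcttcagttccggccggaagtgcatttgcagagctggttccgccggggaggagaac
Snhg10: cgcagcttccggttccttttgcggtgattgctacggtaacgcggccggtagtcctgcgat
Over all lincRNAs with a RefSeq promoter, 6.75% had a run of at least 4 such bases, against 6.73% of all genes.

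Host genes of miRNAs moved in both directions. Of the 4 listed ones in the set, 3 were lower, 1 of them by a call that does not hold up to leaving out a library, and 1 was not called, with a median log2 fold change of -0.51. Over all 7 listed genes that were tested, 4 were lower and 2 higher with a median of -0.17, where 30.6% of all genes were lower. Mir124a-1hg, a host gene of the neuronal miR-124, stood at 0.942, 1.36 and 0.714 TPM in TKO-2i and 2.1, 2.57 and 2.96 TPM in TKO-serum (log2 fold change -1.62, SE 0.15, adjusted p = 2.5e-05). Mir9-3hg, a host gene of miR-9, which is known for its role in neural progenitors, stood at 2.42, 3.05 and 2.18 TPM against 3.65, 4.01 and 4.44 TPM (log2 fold change -0.61, SE 0.13, adjusted p = 0.0027). In both genes the conditions did not overlap. Mir17hg, the host of the miR-17-92 cluster, which promotes proliferation, stood at 5.93, 9.59 and 8.06 TPM against 10.4, 11.1 and 11.9 TPM (log2 fold change -0.41, SE 0.16, adjusted p = 0.049). Its call was lost when any of 4 libraries was left out (TKO-2i replicate 3 or any TKO-serum replicate), with adjusted p from 0.068 to 0.14, and the lowest adjusted p of any alternative was 0.0021. Mir142hg, the host of the blood-cell miRNA miR-142, had a log2 fold change of 0.67 (SE 0.34, adjusted p = 0.11), and of 1.04 (adjusted p = 0.047, the lowest of alternatives that went up to 0.31) without TKO-serum replicate 2. Of 8 genes of the list outside the set, 3 were tested, and Mir22hg (0.68) and Mirt1 (0.92) were higher and AU018091 (-0.17) lower. Mirt1 and Mirt2 are on the list but are named for myocardial infarction and not as miRNA hosts, so the counts of the list are not counts of hosts alone. Mirt1, at under 0.5 TPM, also shares 1011 bases at 100% identity with 4833407H14Rik of the set, which was lower (-0.66), so reads can be divided between these genes.

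By position, 11 lincRNAs hold 36 mature miRNAs of RefSeq on their strand, and 10 of the 11 were tested, with 2 higher and 4 lower and a median of -0.23. Mir124a-1hg, on the list of host genes above, is not among these 11. Mir670hg, which holds miR-670 and miR-129-2, fell from 2.32, 2.32 and 4.48 TPM to 0.224, 0.445 and 0.588 TPM (log2 fold change -2.18, SE 0.30, adjusted p = 0.00029), and entered the set through TKO-serum alone. 6720427I07Rik, which holds let-7 miRNAs, had a log2 fold change of -0.65 (SE 0.27, adjusted p = 0.068). Mature miRNAs were not measured in these libraries. Those of 3 host genes that were lower are shown with the seed, bases 2 to 8, in capitals, because the seed sets which mRNAs a miRNA pairs with. In Mir17hg, miR-17-5p and miR-20a-5p share the seed AAAGUGC, and miR-19a-3p and miR-19b-3p share GUGCAAA.
mmu-miR-17-5p: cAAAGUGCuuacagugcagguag
mmu-miR-20a-5p: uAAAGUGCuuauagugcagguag
mmu-miR-18a-5p: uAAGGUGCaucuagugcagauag
mmu-miR-19a-3p: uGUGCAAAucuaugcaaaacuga
mmu-miR-19b-3p: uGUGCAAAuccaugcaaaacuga
mmu-miR-92a-3p: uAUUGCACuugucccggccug
mmu-miR-9-5p: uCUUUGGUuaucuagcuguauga
mmu-miR-129-5p: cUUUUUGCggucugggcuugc
mmu-miR-670-5p: aUCCCUGAguguauguggugaa
The first 6 lie in Mir17hg, miR-9-5p lies in Mir9-3hg, and the remaining ones lie in Mir670hg.

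Among the RNAs of nuclear bodies and other structural RNAs, 1 of 4 tested lincRNAs fell and 3 were not called. Neat1 (ENSMUSG00000092274, chr19:5824708-5845478 on the minus strand) is the RNA around which paraspeckles assemble. It stood at 18.4, 35.2 and 22.1 TPM in TKO-2i and 56.4, 66.6 and 69.9 TPM in TKO-serum, or 25.2 ± 8.84 against 64.3 ± 7.05 TPM (SD, n = 3). The conditions did not overlap, and TKO-2i replicate 2 lay closest to TKO-serum (log2 fold change -1.28, SE 0.18, adjusted p = 0.00038). The short 2-exon transcript Neat1-202 carried most of the level, with a mean of 22.3 TPM in TKO-2i and 58 TPM in TKO-serum. The long unspliced Neat1-201, the form that builds paraspeckles, had 0.511, 1.13 and 0.723 TPM against 1.69, 1.89 and 2 TPM, and its share of the gene's TPM was 3.09% and 2.9%. The long form is known to end without a poly(A) tail and overlaps Neat1-202, so in poly(A)-selected libraries with reads divided between transcripts these values do not measure its true share. Of 9 paraspeckle proteins, 2 were higher (Nono 0.28 and Rbm14 0.17) and 3 lower (Pspc1 -0.63, Hnrnph3 -0.52 and Sfpq -0.16).

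Malat1, a nuclear speckle RNA from the same region of chromosome 19, stood at 39.1, 95.9 and 53.9 TPM in TKO-2i and 43.8, 54.6 and 55.3 TPM in TKO-serum. TKO-2i replicate 2 was far above all other libraries (log2 fold change 0.07, SE 0.31, adjusted p = 0.86), and without it the estimate was -0.39 (adjusted p = 0.07, with alternatives up to 0.94). The 2-exon transcript Malat1-203 held 31.4%, 19.2% and 22.9% of the gene's TPM in TKO-2i and 12.4%, 0% and 0% in TKO-serum, a division of reads between overlapping transcripts that was not tested. 2900097C17Rik, also known as Norad, which binds Pumilio proteins, had a log2 fold change of -0.03 (SE 0.09, adjusted p = 0.80), and 1700020I14Rik, also known as Cyrano, which directs the decay of miR-7, one of 0.08 (SE 0.13, adjusted p = 0.64). The Norad transcript shares 2535 bases at 99.2% identity with Gm7292, so reads from this stretch were divided between the genes, and their summed level was 33.2, 46.7 and 35.2 TPM against 40.3, 44.2 and 42.8 TPM. Of 3 genes for Pumilio proteins and their partner Khdrbs1, Khdrbs1 was higher (0.38). Outside the set, Tug1 (-0.47) and Miat (-0.89) were lower among 5 tested, and of 9 partner proteins of Xist and Firre 3 were higher (Ciz1 0.59, Lbr 0.32 and Rbm15 0.25).

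Platr genes and other lincRNAs associated with pluripotency moved in both directions. Of 16 in the set, 3 were higher, 6 were lower and 7 were not called, with a median log2 fold change of -0.19. Of 18 listed genes outside the set, 13 were tested, 4 were higher (Platr14 0.73 and Tunar 0.83 among them) and 5 lower (Platr21 -1.37), with a median of -0.12. Lncenc1 (ENSMUSG00000078952, chr13:97434970-97497007 on the plus strand), a lincRNA known for sustaining self-renewal and glycolysis in naive mESCs, had the highest level after the ribosomal RNA-overlapping genes. It stood at 90.6, 124.1 and 100.6 TPM in TKO-2i and 191.5, 217 and 213.1 TPM in TKO-serum (log2 fold change -0.81, SE 0.07, adjusted p = 1.9e-05). Platr10 (ENSMUSG00000099370, chr3:75647446-75655731 on the minus strand) stood at 85.6, 98.4 and 89.5 TPM against 200.2, 208.8 and 192.7 TPM (log2 fold change -1.05, SE 0.05, adjusted p = 8.1e-07). The libraries of the conditions did not overlap for either gene.

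Eprn (ENSMUSG00000113346, chr13:73344665-73347384 on the minus strand), also called Ephemeron and known for acting in the exit from naive pluripotency, had the largest fall of the named pluripotency lincRNAs. It stood at 1.18, 1.56 and 1.15 TPM in TKO-2i and 35, 33.8 and 32.1 TPM in TKO-serum, or 1.3 ± 0.228 against 33.6 ± 1.45 TPM (SD, n = 3; log2 fold change -4.61, SE 0.10, adjusted p = 2.1e-08). Platr30, whose transcript matches Gm17575 at 100% identity over all its 1436 bases and can share reads with it, had 0.0988, 0.182 and 0.124 TPM against 1.23, 2.47 and 2.42 TPM (log2 fold change -3.84, SE 0.36, adjusted p = 3e-05), and reached the admission level through TKO-serum alone. Platr5 (-1.25) and Platr7 (-1.02) were also lower.

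Platr26 (chr2:71719417-71730966) had the largest rise of the Platr genes, with 17.4, 17.8 and 17.7 TPM in TKO-2i and 4.74, 4.91 and 5.67 TPM in TKO-serum (log2 fold change 1.90, SE 0.12, adjusted p = 2.8e-06). Platr13 rose from 27.9, 26.7 and 28.5 TPM to 35.7, 54 and 46.3 TPM (log2 fold change 0.84, SE 0.11, adjusted p = 0.00021). Platr2 was higher by 0.43 (SE 0.14, adjusted p = 0.028), but its call was lost in 9 alternatives, among them leaving out any of 4 libraries (TKO-2i replicate 2 or 3, TKO-serum replicate 1 or 2), with adjusted p from 0.057 to 0.11, and the lowest adjusted p of any alternative was 0.022. It also shares 519 bases at 97.9% identity with Gm26639. Platr15, at 62.5, 102.9 and 81.9 TPM against 91.9, 109.6 and 99.4 TPM, was not called (log2 fold change -0.18, SE 0.12, adjusted p = 0.22), and it was lower with a replicate block and without TKO-2i replicate 2 (-0.29, adjusted p = 0.019, the lowest of alternatives that went up to 0.5). Platr27, not called at adjusted p = 0.051 (log2 fold change -0.41), was lower in 6 alternatives, which are DESeq2 size factors, at least 10 counts in every sample, both limma fits, and leaving out TKO-2i replicate 2 (-0.46, adjusted p = 0.048) or TKO-serum replicate 2 (-0.54, adjusted p = 0.021, the lowest of alternatives that went up to 0.17). Platr3 was not called (-0.20, adjusted p = 0.19) except as lower by both limma fits (adjusted p = 0.011, the lowest of alternatives that went up to 0.54). Platr4 was not called (0.24, adjusted p = 0.067) except as higher by both limma fits and with counts from length-scaled TPM (adjusted p = 0.01, the lowest of alternatives that went up to 0.24). Platr11, Platr20 and Platr28 were not called, with log2 fold changes of -0.09, 0.06 and 0.26.

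**Figure D2:**
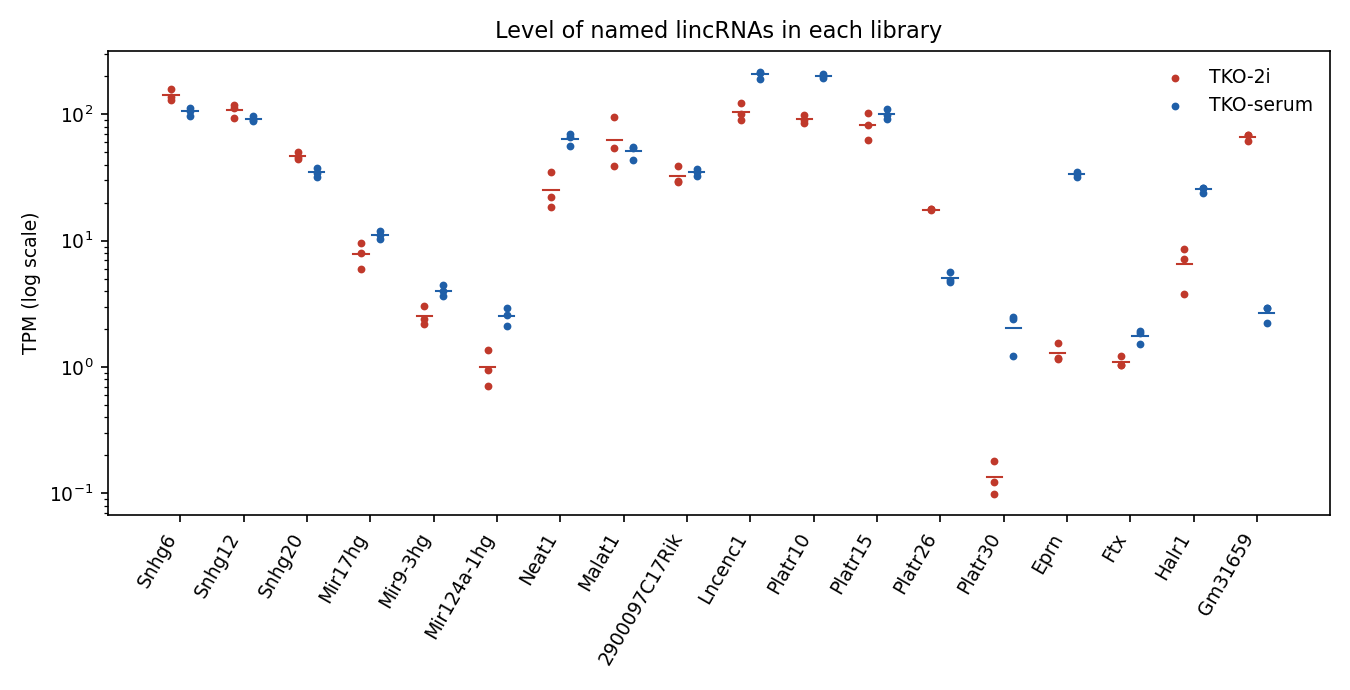
TPM (vertical axis, log scale) of 18 named lincRNAs in each library, each point a library and each short line the mean of 3 libraries, with TKO-2i in red and TKO-serum in blue. Gm31659 and Eprn are the farthest apart, at 66 against 2.69 TPM and 1.3 against 33.6 TPM, while the libraries of Malat1 and Platr15 overlap.

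The promoter of Platr10, an abundant lower lincRNA, is shown as an example in which the RefSeq start and the start of the dominant transcript coincide, chosen after its values were seen. It lies at chr3:75655682-75655981 on the minus strand of GRCm38.p6 and covers 250 bases before to 50 after the start, and the capitals mark CACGTG, the letters of an E-box, which begin 8 bases after the start.
Platr10: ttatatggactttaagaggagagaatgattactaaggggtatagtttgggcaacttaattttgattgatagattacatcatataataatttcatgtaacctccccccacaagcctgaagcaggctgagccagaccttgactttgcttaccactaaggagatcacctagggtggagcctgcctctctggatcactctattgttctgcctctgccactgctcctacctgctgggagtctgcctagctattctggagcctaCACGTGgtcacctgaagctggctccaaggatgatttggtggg
Of the 367 lincRNAs, 163 matched a RefSeq promoter by symbol, and 82 of these had a start within 50 bases of the start of the dominant transcript. On either strand, CACGTG was found in 8.59% of the matched promoters, against 7.24% of the promoters of 27025 genes. CTTTGAT, the core of the motif bound by TCF factors of the WNT pathway, which CHIR99021 stimulates, was found in 3.07% against 3.72% of all. TTCCNGGAA, the motif of STAT factors downstream of LIF, was found in 2.45% against 1.15%, and TATAAA in 9.82% against 14.2%. The median GC content was 51.7% against 52.7%. A match is a description of letters and not of binding.

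Of the transcripts of the X inactivation centre, Ftx was the only one in the set, at 1.04, 1.22 and 1.04 TPM in TKO-2i and 1.51, 1.85 and 1.94 TPM in TKO-serum (log2 fold change -0.69, SE 0.17, adjusted p = 0.0073). Ftx is a positive regulator of Xist, the RNA that silences an X chromosome in female cells. Under 1 TPM, Xist (-3.19) and Jpx (-1.64) were lower as well, as was the antisense transcript Tsix (-0.80). The mRNA of Rlim, an activator of Xist, was not called (-0.09). Of 8 genes listed for the centre, 5 were found in the annotation and tested, and 4 of these were lower in TKO-2i, where 30.6% of all genes were.

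Of the lincRNAs near developmental genes, Halr1 fell and Bvht was not called. Halr1, also known as Haunt, lies beside the Hoxa cluster and is known for restraining Hoxa genes. It stood at 7.12, 8.65 and 3.8 TPM in TKO-2i and 24, 26.3 and 26 TPM in TKO-serum (log2 fold change -1.85, SE 0.21, adjusted p = 9.3e-05). Gm53 lies 6589 bases from Hoxb9 and rose with it. Gm53 stood at 22.9, 30.3 and 28.2 TPM against 7.8, 5.47 and 11.6 TPM (log2 fold change 1.96, SE 0.09, adjusted p = 5.2e-07), and the log2 fold change of Hoxb9 was 2.84. Bvht, known for its role in cardiac commitment, had 17.5, 16.7 and 17.1 TPM against 16.2, 16.6 and 18.5 TPM (log2 fold change 0.12, SE 0.12, adjusted p = 0.39). Of 19 listed genes outside the set, only 6 passed the filter on low counts, with Hotairm1 (2.80) higher and Haglr (-2.10), Sox2ot (-1.10) and Sox1ot (-0.78) lower.

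Pvt1, which lies 47612 bases from Myc and is known for acting on it, fell modestly, from 9.17, 12.1 and 10.2 TPM to 8.22, 8.47 and 6.99 TPM (log2 fold change -0.36, SE 0.09, adjusted p = 0.007), and Myc fell as well (-1.14, adjusted p = 1.3e-06). Trp53cor1, a target of p53 also known as lincRNA-p21, was under the admission level and was higher (1.60, SE 0.18, adjusted p = 9.1e-05).

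The largest rise of all ranked lincRNAs was that of Gm31659 (ENSMUSG00000110489, chr8:95808552-95818274 on the minus strand), which has no role known to the annotation. It stood at 68.7, 61 and 68.4 TPM in TKO-2i and 2.92, 2.91 and 2.24 TPM in TKO-serum, or 66 ± 4.35 against 2.69 ± 0.389 TPM (SD, n = 3; log2 fold change 4.59, SE 0.18, adjusted p = 2.1e-07). Its nearest protein-coding gene, Cnot1, a scaffold of the CCR4-NOT deadenylase 1088 bases away, was not called (0.20, adjusted p = 0.076). It shares 210 bases of its transcript of 338 bases at 100% identity with 4930513N10Rik, so reads from this stretch can be divided between the genes. 4930513N10Rik had 1.5, 1.85 and 1.5 TPM against 1.85, 2.51 and 1.83 TPM and was not called. Of the 133 lincRNAs that were called, did not overlap between conditions and had a mean of at least 1 CPM, the other large rises were 1110002J07Rik (2.46), Gm31718 (2.36), 2410003I16Rik (2.04), Gm53, Platr26, 4930461G14Rik (1.78) and Gm2379 (1.56). Gm31718, at a mean of 0.448 TPM in TKO-serum, entered the set through TKO-2i alone. So did Gm29630 (4.35), A330048O09Rik (4.13), Gm13832 (2.64) and Gm12514 (2.47), which rose by more than 1110002J07Rik but had a mean under 1 CPM and so were not ranked. 1110002J07Rik stood at 24.3, 28.5 and 20.6 TPM against 4.19, 5.18 and 4.05 TPM. Gm2379 (chr13:97511204-97515730) follows Lncenc1 on the same strand and moved the other way, at 15.4, 26.4 and 25.2 TPM against 7.56, 7.26 and 8.4 TPM (SE 0.20, adjusted p = 0.00017). Of the abundant lincRNAs, 1810058I24Rik, reported to encode a mitochondrial micropeptide, stood at 153.1, 138.9 and 160 TPM against 88.1, 85.9 and 88.2 TPM (log2 fold change 0.88, SE 0.08, adjusted p = 2.6e-05). Gm13166, whose nearest protein-coding gene is the zinc-finger gene Zfp600 and whose whole transcript is 99.1% identical to a part of Zfp991, with which it can share reads, stood at 69.9, 86 and 80.1 TPM against 129.9, 123.3 and 122.7 TPM (log2 fold change -0.56, SE 0.08, adjusted p = 0.00034).

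By the same ranking, which asks for a mean of at least 1 CPM, the largest falls were those of Gm44739 and Gm6507, which were nearly absent in TKO-2i. Gm44739 had 4 estimated counts over the 3 TKO-2i libraries and 486 over the TKO-serum libraries, a ratio of serum to 2i of 120.9 with a 95% counting interval of 46.9 to 445.4. Gm6507 had 3 against 355 estimated counts, a ratio of 117.7 (40 to 573.5), and Gm49575, just inside the admission level and under 1 CPM, had 1 against 79, a ratio of 78.6 (13.7 to 3143). In each of these genes the TKO-2i libraries were at or under the floor of 3 counts, so that fitted log2 fold changes (-6.71, -6.65 and -5.80) depend on the prior count of the fit. The other large falls by the ranking were Gm48422 (-5.31), Gm48492 (-5.03), Gm48829 (-4.89), Gm48764 (-4.78), Gm45899 (-4.63) and Eprn, while Gm14742 (-4.77) was under 1 CPM. Gm44739, Gm6507, Gm49575, Gm14742, Gm48422, Gm48492 and Gm48829 were under 1 TPM in TKO-2i and entered the set through TKO-serum alone, where they were high, so their falls are described and support nothing. Gm48764, Gm45899 and Eprn had at least 1 TPM in each condition.

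Of the 8 largest falls of lincRNAs with at least 1 CPM, 6 belong to lincRNAs that are near copies of others in the set. Of these 6, only Gm48764 and Gm45899 had at least 1 TPM in each condition. Near copies divide reads, so the 6 are not separate falls and their count is a description that supports nothing. At 95% identity over at least 50% of the longer dominant transcript, 26 lincRNAs formed 10 families. The largest holds Gm47486, Gm48422, Gm48492, Gm48764, Gm48799 and Gm48829, on chromosomes 12 and 13, whose 2-exon transcripts of 2705 to 3667 bases are 98.5% to 99.2% identical. All 6 were lower, with a median log2 fold change of -4.83, and the 3 with at least 1 TPM in each condition had one of -4.46. Since reads that fit several copies are divided between them, the sum is the firmer quantity. It was 5.3, 8.95 and 7.06 TPM in TKO-2i and 162.4, 203.3 and 188.8 TPM in TKO-serum, a log2 ratio of -4.62 between mean CPM sums. Gm48764 (ENSMUSG00000112496, chr12:9503584-9509637 on the minus strand) was the most abundant, at 2.13, 3.3 and 2.71 TPM against 69.9, 84.1 and 80.1 TPM (SE 0.12, adjusted p = 3.3e-08).

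Gm47486, Gm48764 and Gm48799 each hold an open reading frame of 976 codons, so their lincRNA type rests on the annotation and not on a lack of coding sequence. Each of the 6 genes shares at least 50% of its transcript at 95% identity with 16 or 17 genes, the rest of its family among them. Reads can thus be divided with genes outside the family as well. Over all lincRNAs, 15 hold an open reading frame of at least 300 codons, of which 10 were lower and 1 was higher (median -1.07). Of these 15, 7 belong to families of near copies that divide reads, and of the 8 outside families 5 were lower, none was higher and the median was -0.57, where 30.6% of all genes were lower. Gm49083 (-2.20) and Gm45322 (-1.67), the largest falls of these 8, also share sequence with 3 and 5 genes. Of the 13 with such a frame and at least 1 TPM in each condition, 8 were lower and 1 was higher (median -0.64), and 4 of the 7 outside families were lower (-0.50). Gm45899 and Gm44739 form a family of their own, 99% identical over 1063 bases, with a sum of 2.27, 3.8 and 2.76 TPM against 69.8, 88.4 and 77.3 TPM. Each shares at least 50% of its transcript at 95% identity with 12 genes, the other of the pair among them, so reads can be divided between all of these. Among these are Gm48271, at 3.06, 5.78 and 3.84 TPM against 93, 117.8 and 107.1 TPM, and Tmem72, which Gm47486 matches as well. Of the 10 families, only those of Gm48764 and Gm45899 had all tested lincRNAs lower. In 1 family, Gm12840 and Gm20186, both were higher (median 0.86), although their sums of 7.03, 17 and 12.4 TPM against 6.89, 8.39 and 6.23 TPM overlap. In 1 some were higher and none lower, in 2 some were lower and none higher, in 3 none was called, and in 1 the calls went both ways. In that family, Gm43549, Gm47939 and Gm48362 are 98.8% to 99.5% identical and also hold long open reading frames. They summed to 66.4, 106.1 and 82 TPM against 80.8, 99.9 and 91.1 TPM, and the conditions overlapped. Gm43549 also shares 2659 bases at 99.1% identity with Gm42047, a lincRNA of the set outside this family and its sum, so reads can be divided with it. Gm42047 stood at 46.8, 76.1 and 55.9 TPM in TKO-2i and 52.2, 60.3 and 58.5 TPM in TKO-serum and was not called.

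**Figure D3:**
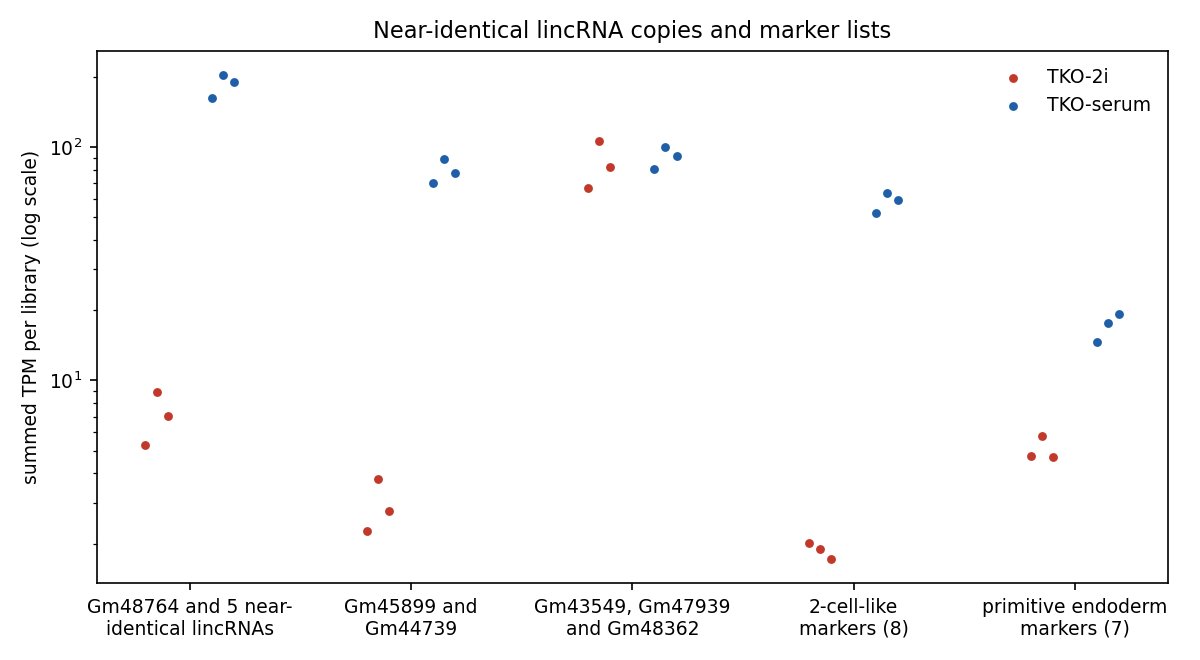
Summed TPM per library (vertical axis, log scale) of 3 families of near-identical lincRNAs and of the 2-cell-like and primitive endoderm marker lists, each point a library, with TKO-2i in red and TKO-serum in blue. The family of Gm48764 lies between 5.3 and 8.95 TPM in TKO-2i and between 162.4 and 203.3 TPM in TKO-serum, while the family of Gm43549 overlaps between conditions.

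The 2-cell-like markers were lower in the same libraries in which these families were lower, from a sum of 52.1 to 63.4 TPM in TKO-serum to 1.72 to 2.02 TPM in TKO-2i, and their part in these falls was not tested. Counting all lincRNAs that share at least 50% of their transcript at 95% identity with another gene gave 75, of which 68 were tested, 6 were higher and 35 were lower, with a median of -0.47. Among the 292 without such sharing, 283 were tested, 65 were higher and 86 were lower, with a median of -0.09. With at least 1 TPM in each condition, 5 of 57 with sharing were higher and 25 lower (median -0.41), and 51 of 227 without it were higher and 53 lower (-0.03). The split was made after the data were seen. Higher lincRNAs were 43% of those called in the set without sharing, against 37% in all. Without TKO-2i replicate 2, 65 were higher and 109 lower without sharing (median -0.16), and 6 and 39 with it (-0.67).

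The lincRNAs were also counted by exon number, level and kind of name. Exon number here is the largest among all transcripts of a gene, which can exceed that of the dominant transcript. Of the 30 tested lincRNAs with 1 exon, 2 were higher and 11 lower (median -0.28). Of 114 with 2 exons, 24 were higher and 46 lower (-0.39), and of 207 with 3 or more exons, 45 were higher and 64 lower (-0.10). With at least 1 TPM in each condition, 2 were higher and 7 lower of 26, 20 and 29 of 92, and 34 and 42 of 166, with medians of -0.21, -0.16 and -0.05. Without TKO-2i replicate 2, the medians over all tested lincRNAs by exon number were -0.42, -0.46 and -0.21. In these classes 3, 23 and 45 were then higher and 14, 51 and 83 lower. By mean level, 18.4% were higher and 37.8% lower from 1 to under 2 TPM, 20.4% and 31% from 2 to under 5 TPM, 20.4% and 38.8% from 5 to under 10 TPM, and 22% and 33% from 10 TPM up. The lowest class holds most of the lincRNAs admitted through 1 condition. Among those with at least 1 TPM in each condition the shares higher and lower were 10.6% and 17%, 21.4% and 22.4%, 20.8% and 37.5%, and 22% and 33% over these classes, so that the share called was 27.7%, 43.9%, 58.3% and 54.9%. Tests have less power at low counts. LincRNAs named only by Gm and a number had a median of -0.25 (226 tested, 36.3% lower), those with a Rik name 0.07 (72 tested, 23.6% lower) and those with other names -0.28 (53 tested, 41.5% lower). Over lincRNAs with at least 1 TPM in each condition, the medians were -0.17, 0.07 and -0.20 and the shares lower 28.8%, 16.7% and 36.2% of 177, 60 and 47. Without TKO-2i replicate 2, the medians over all tested lincRNAs by kind of name were -0.36, -0.04 and -0.29. The sign for Rik names thus turned.

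By chromosome, the set was densest on chromosome 13, with 46 lincRNAs, of which 7 were higher and 18 lower (median -0.28, against -0.11 for all genes of that chromosome). On chromosome 8, 15 of 26 were lower (57.7%, where 30.6% of all genes were lower) and 3 were higher, with a median of -0.97 against -0.02 for all genes there. With at least 1 TPM in each condition, 8 of 16 were lower and 1 was higher there (median -0.58), and 13 of 36 were lower and 5 higher on chromosome 13 (-0.27). The lower ones on chromosome 8 include Gm45899 and Gm27167 (-4.11), of which Gm27167 was admitted through TKO-serum alone, and the higher ones Gm31659 and Gm31718. Chromosomes 3, 16, 19 and X had medians of -0.55, -0.98, -0.66 and -0.49, against -0.04, 0.05, 0.02 and -0.07 for all genes, with 17, 11, 5 and 5 lincRNAs tested. These medians were -0.24, -0.46, -0.66 and -0.46 over lincRNAs with at least 1 TPM in each condition, with 15, 7, 5 and 4 tested. Chromosomes 10 and 18 had 0.13 each, with 27 and 6 tested (0.13 and 0.20 with at least 1 TPM in each condition). The other autosomes except 6 and 11 had medians from -0.41 to 0.07 (-0.36 to 0.07), and the single lincRNA of chromosome Y 0.38. Chromosomes 6 and 11, on which all tested genes had medians of 0.41 and 0.26, gave lincRNA medians of 0.32 and 0.43 (0.44 and 0.31 with at least 1 TPM in each condition), and the number of copies of these chromosomes was not measured. Leaving these chromosomes out left 58 higher and 117 lower lincRNAs.

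The nearest protein-coding gene lay at a median of 18046 bases, and 31 lincRNAs overlapped it. For 282 lincRNAs both were tested, and for 102 both were called, 76 of them in the same direction (32 both higher, 44 both lower) and 26 in opposite directions. Over the 288 lincRNAs, both were called in 74 of 236 pairs tested, 52 in the same direction and 22 in opposite ones. Neighbours share chromosome segments and sometimes reads, so this is a description.

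Divergent pairs, whose starts lie within 2 kb on opposite strands, can share a promoter. Of 33 such lincRNAs, 32 were tested, 9 were higher and 7 lower (9 and 3 of 28 with at least 1 TPM in each condition), and in 13 pairs both genes were called, 8 in the same direction. 5930412G12Rik (1.01, SE 0.18, adjusted p = 0.0013) lies 151 bases from Fzd10, a WNT receptor gene that also rose (1.78). Gm12688 (-0.76, SE 0.15, adjusted p = 0.0023) lies 1316 bases from Foxd3, a transcription factor of early pluripotent cells that also fell (-1.33), and Gm41231 (-2.64), admitted through TKO-serum alone, lies 1486 bases from Klf12 (-2.46). In other pairs the genes moved apart, such as Gm12319 (1.07) and Eno3 (-0.98), a muscle enolase gene, and 4632404H12Rik (-0.55) and Ube2q1 (0.34). These divergent pairs were named after their values were seen.

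Transcripts that run on past the end of a gene can be counted as a lincRNA downstream of it. A protein-coding gene on the same strand ended within 5 kb before 22 lincRNAs, of which 19 were tested, 4 were higher and 2 lower (31.6% called, and 3 and 2 of 17 with at least 1 TPM in each condition). In 5 pairs both were called, 4 in the same direction. Without TKO-2i replicate 2, 4 of the 19 lincRNAs were higher and 5 lower. Gm49503 (1.57), admitted through TKO-2i alone, starts 248 bases after the end of Cenpm (0.44), and Neat1 starts 4224 bases after the end of Frmd8 (-0.34). Whether any of this RNA is continuous was not tested.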

How the data were processed

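RNA-seq libraries of TKO mESCs, 3 TKO-2i and 3 TKO-serum, were compared. The labels call the replicates biological. The authors deposited estimated counts for each transcript, which are not normalized and divide reads that fit several transcripts, so that near-identical genes share reads. TPM, also deposited, divides by transcript length and gives every library an equal sum. The deposited lengths and effective lengths of transcripts are in bases. The sources name no tool for these values, and the paper's methods describe Tophat, RPKM and DEseq.

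By identifier, 99.86% of transcripts matched GENCODE M21, with 0.0473% to 0.0643% of counts left out. Estimated counts and TPM were summed per gene. In edgeR 4.0.16 (R 4.3.3), counts were rounded, low genes were removed by filterByExpr, libraries were scaled by TMM, and the conditions were compared by glmQLFit and glmQLFTest with Benjamini-Hochberg adjustment over 18177 genes. Log2 fold changes are TKO-2i minus TKO-serum. A gene with 3 counts, taken as the floor, had 0.0564 to 0.0778 CPM. The biological coefficient of variation was 0.0902. Floors and intervals cover counting error only. Dominant transcripts, those with the highest mean TPM, were compared with blastn 2.17.0. Motifs and sequences are from RefSeq (GRCm38.p6).

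The edgeR fit, the fit with a replicate block and DESeq2 were also run on simulated data with known changes. No result given here rests on these runs. The standard error (SE) is the size of the log2 fold change over the square root of F.

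The members and gene lists were chosen with earlier results of these data known. The named genes are those of the role lists, the 8 largest rises and 8 largest falls among called lincRNAs with a mean of at least 1 CPM and no overlap, the 8 of highest mean TPM and 3 on each side of the threshold. Genes named beside these were chosen after their values were seen. Alternatives were DESeq2 1.42.0, its size factors in edgeR, no filter, at least 10 counts in every sample, a replicate block, limma 3.58.1 on log2(TPM + 1) and log2(TPM + 0.1), counts from length-scaled TPM, each library left out, and admission at 0.5 or 2 TPM or at 1 TPM in each condition. Leaving out lincRNAs with shared sequence, or those of chromosomes 6 and 11, was chosen after seeing the data.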

Additional observations from a re-analysis of the deposited data

How the results depend on the processing

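None of the 351 tested lincRNAs was called against the direction of its main estimate in any alternative fit, and lower lincRNAs outnumbered higher ones in each, with higher ones between 31.2% and 43% of those called. Leaving out each library gave 58 to 71 higher and 110 to 148 lower lincRNAs, 31 to 37 at least 2-fold higher, 76 to 81 at least 2-fold lower, medians of -0.29 to -0.15, and 10152 to 12568 genes called in all. The number at least 2-fold higher was 19 with limma on log2(TPM + 1), which shrinks the change of low genes, and 51 with admission at 0.5 TPM, which admits more genes. With at least 1 TPM in each condition, which admits fewer, 78 were lower and 41 at least 2-fold lower. The median was -0.31 with limma on log2(TPM + 0.1), and the cause was not tested. Same-numbered libraries of the conditions correlated in their deviations from the group means by r = 0.242, 0.329 and 0.014 for replicates 1, 2 and 3 across genes, which are not independent, so the numbers do not pair all libraries. With the replicate number as a block, 75 lincRNAs were higher and 149 lower, and 12539 genes were called in all. Chosen after seeing the data, leaving out lincRNAs with shared sequence gave 65 higher, 86 lower, 32 and 56 at least 2-fold and a median of -0.09, and leaving out chromosomes 6 and 11 gave 58, 117, 27 and 76 and a median of -0.23. Of 55 named lincRNAs with a fitted change, 45 had the same call under every alternative run. The exceptions were Gm26917, Gm42418, Mir142hg, Mir17hg, Platr2, Platr3, Platr4, Platr15, Platr27 and Snhg12. Dnmt1 had a log2 difference of 0.17 and 0.18 with limma on log2(TPM + 1) and log2(TPM + 0.1) and was not called. The filter on low counts left 16 lincRNAs out of the main fit, of which Gm45090 had its counts in a single library, and depth limits the ratios of lincRNAs with 1 to 4 counts in TKO-2i.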
